A study of Mus musculus with 6 samples.

Results

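RNA polymerases I, II and III copy the nuclear genome, and their subunits were compared between control and ethylparaben-exposed (EtP) mouse embryos. Subunit genes were all rows whose symbol begins Polr1, Polr2 or Polr3 followed by a letter, with pseudogenes left out, which gave 28 of the 55549 rows of each gene table. Of these, 5 carry a polymerase I symbol, 13 a polymerase II symbol and 10 a polymerase III symbol. The single row left out as a pseudogene, Polr2k-ps, had a total count of 0. Embryos at the early 2-cell stage were sequenced from polyadenylated RNA, as 3 control libraries and 3 EtP libraries. The control libraries carry no stated treatment. EtP embryos had been moved, as zygotes 4 h after fertilization, into culture medium with 40 µM ethylparaben, a paraben preservative, and the series states that most of them arrested at this stage. The labels give no strain, genotype, number of embryos per library or hour of collection, and they leave unsaid whether replicate libraries are separate cultures. A p-value here therefore measures the scatter among libraries, possibly technical, and a difference in age between the groups cannot be told apart from the treatment. Because whole embryos were lysed, fewer cells and less RNA per cell cannot be told apart either.

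Polymerase I transcribes the ribosomal RNA precursor, polymerase II messenger RNAs, and polymerase III transfer RNAs, 5S ribosomal RNA and other short RNAs. Each enzyme is built around a pair of large subunits that form the catalytic cleft, a smaller dimer on which assembly begins, and a stalk through which the new RNA leaves. A few small subunits are present in all of them, and the shared ones are named here under Polr2. In the mouse, the egg is transcriptionally silent at the end of its growth, so an embryo begins with transcripts and proteins stored by the egg and starts its own transcription between the zygote and the 2-cell stage. The libraries hold only polyadenylated RNA, so they report the subunits' messages and not the RNAs that polymerases I and III make.

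Totals were 11173295 to 14737152 estimated counts per library. The embryo and egg markers were all detected. Of these 9, 7 were called higher in EtP by edgeR after TMM scaling, beside 12.5% of all genes tested. Nlrp5, Padi6, Gdf9 and Bmp15 rose by 1.59 to 2.52 on the log2 scale. Of 11 cumulus and granulosa markers 3, Amh, Ptx3 and Inhbb, were at 0 in every library. The list summed to 18.4 to 40.1 CPM (counts scaled to TMM-adjusted library size) in control and 17.5 to 19.5 in EtP, with overlap. In TPM, the transcript abundance described below, it summed to 15.7 to 24.2 in control and 7.5 to 9.97 in EtP, without overlap. Most of the CPM sum was Cyp19a1 (log2 fold change -0.37, edgeR adjusted p = 0.436). The rest of that list summed to 4.02 to 5.26 CPM in control and 1.08 to 1.83 in EtP. With Cyp19a1, 4 genes of the list could be tested. Fshr fell, from 1.14 to 2.08 CPM in control to 0.221 to 0.772 in EtP, and so did Tnfaip6, from 0.584 to 1.56 CPM to 0 in every EtP library (edgeR adjusted p = 0.0345 and 0.00285). Has2 was not called (log2 fold change -0.50, edgeR adjusted p = 0.533). The 5 sperm markers summed to 5.84 to 12.8 CPM in control and 2.90 to 3.23 in EtP, most of it Prm2, which fell by 1.45 on the log2 scale (SE 0.35; edgeR adjusted p = 0.0111), with Tnp1 at 0 throughout. The part of these differences in the results below was not tested. Estimated counts, which share ambiguous reads between genes, were not whole in at least 1 library for 16 of the 28 subunits, and exons of 10 subunits overlap a gene on the other strand, which includes Polr2b and Polr2c among those called.

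Levels are given in 2 ways. Deposited TPM, a transcript abundance, is corrected for transcript length and sums to the same total in each library, and it serves to compare genes with each other. CPM after TMM scaling, which sets each library's size so that most genes are centred, serves to compare the groups, and a gene is said to have risen or fallen where edgeR's quasi-likelihood test gave a Benjamini-Hochberg adjusted p below 0.05 over all 14373 genes tested. Fold changes are log2, EtP minus control, with their standard error (SE).

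Of the 28 subunits 27 could be tested, and 4 rose and 5 fell, which is 33.3% of those tested. Across all genes tested 30.6% were called, 12.5% higher and 18.1% lower, so the subunits were called at about the background rate. Polr1e, Polr2b, Polr2c and Polr2d rose, and Polr1c, Polr2e, Polr2m, Polr3c and Polr3g fell. The median log2 fold change was -0.12 for the subunits and -0.19 for all genes tested. Polymerase I had 1 subunit higher and 1 lower of 5 (median -0.12), polymerase II 3 higher and 2 lower of 13 (median -0.47), and polymerase III 0 higher and 2 lower of 9 (median 0.01). Among the polymerase III subunits 2, Polr3a and Polr3e, were higher at an unadjusted p below 0.05, and DESeq2 called 1 higher and limma-voom 0.

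These directions depend on how the libraries are scaled. When libraries were scaled by total count alone, the median over genes shifted by -0.73, and 56.8% of genes were called, 53.0% lower and 3.79% higher; 15 subunits were then lower and 2, Polr2b and Polr2d, higher. The deposited TPM, tested on log2(TPM + 1) with limma, gave 15 lower and 1 higher, Polr2d. Directions below are relative to the TMM scaling unless a sentence says otherwise. Ratios between subunits within a library, given further on, do not depend on the scaling.

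**Figure D1:**
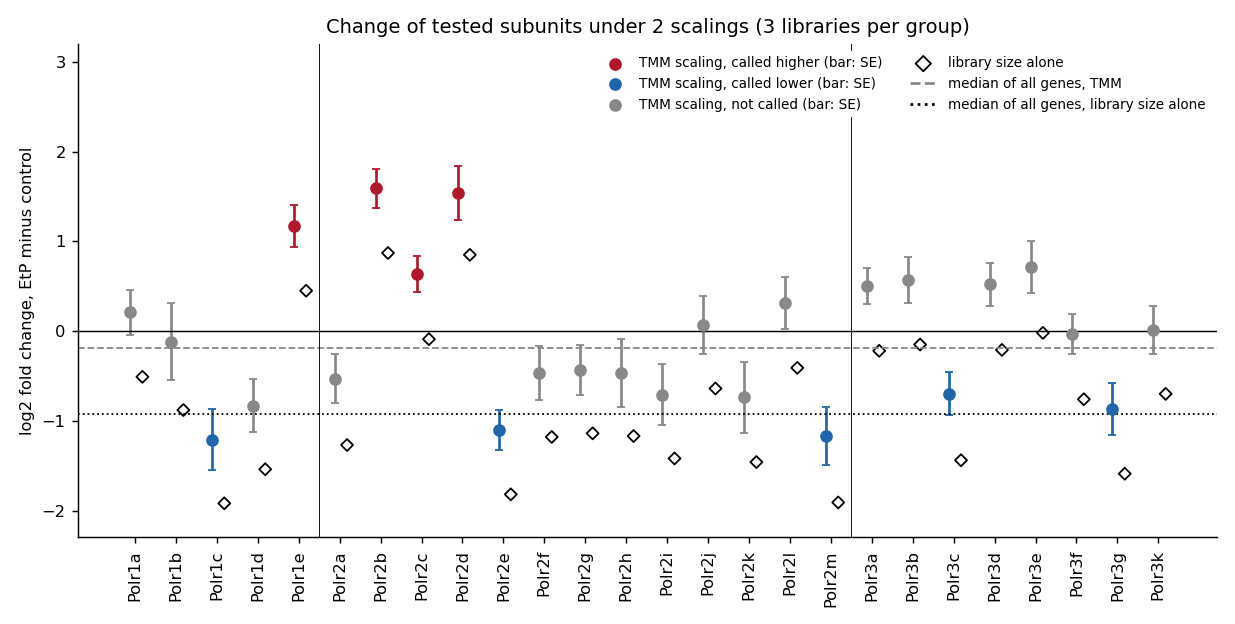
Log2 fold change (EtP minus control) of 26 tested subunits under 2 scalings, by polymerase. Filled points are edgeR estimates with ± SE from 3 libraries per group, coloured where the subunit rose or fell, open diamonds are the same values with library size alone, and broken lines are the medians of all genes (-0.19 and -0.92). Polr2b and Polr2d lie highest, Polr1c and Polr2m lowest, and the diamonds lie below the points throughout.

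The promoters of 4 subunits are shown so that the DNA at the start of genes that rose can be set beside that of genes that fell. RefSeq windows on GRCm38.p6, from 250 bases before to 50 bases after the start, were found for 22 of the 28 subunits. The windows of Polr2b (chr5:77310234-77310533, plus strand) and Polr1e (chr4:45018359-45018658, plus strand), which rose, and of Polr2e (chr10:80039610-80039909, minus strand) and Polr1c (chr17:46247996-46248295, minus strand), which fell, read as follows on the gene's strand. Capitals mark GGGCGG (the GC box) and CCGGAAG (an ETS core), each on either strand.
Polr2b: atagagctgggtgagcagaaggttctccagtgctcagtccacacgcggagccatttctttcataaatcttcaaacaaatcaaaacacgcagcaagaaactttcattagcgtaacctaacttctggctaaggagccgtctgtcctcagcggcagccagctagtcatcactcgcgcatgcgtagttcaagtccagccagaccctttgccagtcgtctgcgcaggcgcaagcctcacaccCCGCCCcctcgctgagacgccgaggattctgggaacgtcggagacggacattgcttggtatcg
Polr1e: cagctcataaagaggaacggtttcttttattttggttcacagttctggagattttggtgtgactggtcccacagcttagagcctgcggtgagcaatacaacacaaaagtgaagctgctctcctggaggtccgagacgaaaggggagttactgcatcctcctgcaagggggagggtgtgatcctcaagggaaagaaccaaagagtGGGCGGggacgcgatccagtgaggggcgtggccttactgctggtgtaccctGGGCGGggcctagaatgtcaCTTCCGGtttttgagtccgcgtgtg
Polr2e: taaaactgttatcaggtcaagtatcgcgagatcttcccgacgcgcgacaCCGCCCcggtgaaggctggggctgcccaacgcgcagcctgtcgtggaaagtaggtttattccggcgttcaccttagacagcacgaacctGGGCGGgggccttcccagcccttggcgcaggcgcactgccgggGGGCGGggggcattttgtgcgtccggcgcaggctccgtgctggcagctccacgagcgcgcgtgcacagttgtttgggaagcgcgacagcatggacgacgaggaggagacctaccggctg
Polr1c: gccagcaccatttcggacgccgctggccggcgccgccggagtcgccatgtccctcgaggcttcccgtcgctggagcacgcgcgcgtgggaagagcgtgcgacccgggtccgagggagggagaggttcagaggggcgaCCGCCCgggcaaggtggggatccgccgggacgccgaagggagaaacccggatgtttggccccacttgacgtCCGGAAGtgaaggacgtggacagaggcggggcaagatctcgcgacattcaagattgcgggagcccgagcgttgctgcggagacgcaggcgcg

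The motifs were searched in all 32851 windows of the table, as exact letters on both strands, and were chosen with the results known. GGGCGG was found in 14 of the 22 subunit windows (63.6%) and in 35.7% of all windows, in genes that rose (Polr1e and Polr2b) and in genes that fell (Polr1c, Polr2e, Polr2m, Polr3c and Polr3g). CCGGAAG was found in 7 subunit windows (31.8%) against 8.86% of all, again in genes of either direction. CACGTG, the E-box, was in 4 subunit windows (18.2%, against 7.15%), CCAAT in 6 (27.3%, against 37.4%) and TATAAA in 2, Polr2a and Polr2c (9.09%, against 13.6%). A match describes the letters in a window and is not a binding site.

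The catalytic pair of polymerase II was 1 of 4 pairs of partner subunits, among 11 compared, whose count ratio did not overlap between the groups. This share was not computed for other pairs of genes. For single genes, the CPM groups did not overlap for 46.8% of all genes tested. Polr2b, the next largest subunit after Polr2a and the one that forms the other wall of the cleft, lies on chromosome 5 from 77310147 to 77349324 (mm10, plus strand). It had 32.9, 34.6 and 31.8 CPM in the control libraries and 98.8, 84.4 and 116 CPM in the EtP libraries. The groups did not overlap and the lowest EtP library stood far above the highest control. Polr2b rose by 1.59 ± 0.22 (SE; edgeR adjusted p = 0.000459).

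Polr2a, whose long C-terminal repeat domain (CTD) is phosphorylated as polymerase II moves through a gene, had 9.06, 11.8 and 12.6 CPM in control and 6.37, 9.28 and 7.62 CPM in EtP. Its groups overlapped, and its log2 fold change of -0.53 ± 0.27 was not past the threshold (edgeR adjusted p = 0.16), although 4 of 18 alternatives called it lower. In TPM, which allows the genes to be set side by side, Polr2a was at 2.60, 3.00 and 3.66 in control and 1.18, 1.39 and 1.36 in EtP, and Polr2b at 17.6, 14.6 and 23.7 in control and 24.0, 20.8 and 33.3 in EtP. The message for the largest subunit was thus the scarcer of the pair in every library.

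The ratio of Polr2a to Polr2b counts was 0.275, 0.342 and 0.396 in control and 0.0645, 0.110 and 0.0655 in EtP. Every EtP library was below every control library, a 4.31-fold difference in the ratio (3.27-fold with TPM). The exact two-sided permutation p was 0.1, the smallest that 3 against 3 allows, and 0.275 when adjusted over the 11 pairs of subunits compared. The pairs were chosen by their place in the enzyme after the single-gene values had been seen.

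The rise of Polr2b was held in each of 6 comparisons that left out 1 library (1.5 to 1.74), and it was lost with log2(TPM + 1), where it was 0.46 with an adjusted p of 0.176 by limma. Over the 18 alternatives the adjusted p ran from 3.24e-11 to 0.176. The deposited transcript length of Polr2b, an average weighted by the isoforms the authors' estimates assigned, was 2662, 4090 and 2712 bases in control and 4145 bases in each EtP library. TPM divides by this length. Exons of Polr2b overlap those of Igfbp7 on the other strand and the protocol does not mark strand. Igfbp7 was at 25.3, 13.1 and 10.3 CPM in control and 5.02, 4.42 and 3.89 CPM in EtP, opposite in direction to Polr2b.

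**Figure D2:**
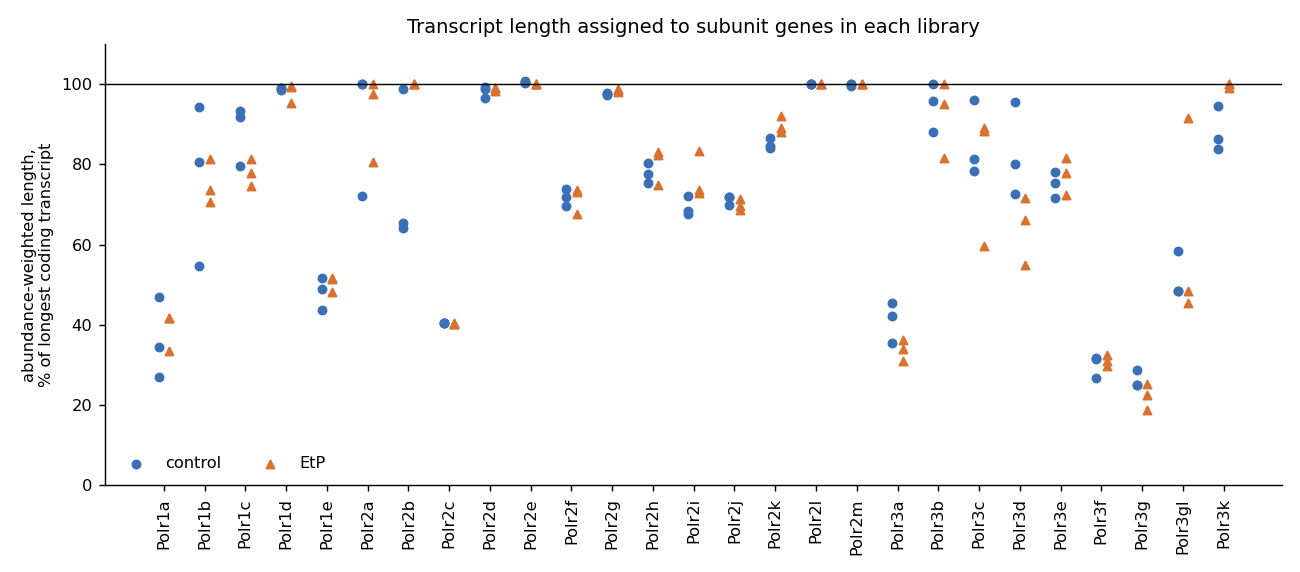
Deposited weighted transcript length (bases) of 27 subunits as a percentage of the gene's longest coding transcript, by library, control and EtP. The 3 EtP libraries of Polr2b sit at 100% while its lowest control library is at 64.2%, and Polr3a stays between 31.1% and 45.4%.

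The corresponding pairs of the other enzymes did not separate the groups. Polr1a, the catalytic subunit of polymerase I, had 15.7, 22.2 and 17.4 CPM in control and 18.4, 19.4 and 26.2 CPM in EtP (0.21 ± 0.25; edgeR adjusted p = 0.544). Its partner Polr1b was low and variable, at 1.92, 3.54 and 6.88 CPM in control and 3.67, 3.2 and 4.39 CPM in EtP (-0.12 ± 0.43; edgeR adjusted p = 0.854). The ratio of Polr1a to Polr1b counts ran from 2.53 to 8.16 in control and from 5.03 to 6.07 in EtP, and overlapped. The sign for Polr1a flipped with library size alone (-0.51), and that for Polr1b without control replicate 3 (0.50).

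Polr3a, the catalytic subunit of polymerase III, stood at 52.3 to 56.7 TPM in control and 52.3 to 69.9 in EtP, above the other large subunits on that scale. In CPM per kilobase of the longest coding transcript Polr3a was at 11.6 to 13.6 in control and 16.6 to 20.3 in EtP, above Polr2b in control (7.67 to 8.36) and below it in EtP (20.4 to 28.1). It had 63.6, 62.7 and 54.2 CPM in control and 81.7, 77.9 and 95.1 CPM in EtP. These groups did not overlap, yet the log2 fold change of 0.50 ± 0.20 was not past the threshold (edgeR adjusted p = 0.0892), and with library size alone it was -0.22. It passed with control replicate 1 left out (0.63, edgeR adjusted p = 0.0165) and in DESeq2 (adjusted p = 0.0361), and over all alternatives the adjusted p ran from 0.0165 to 0.601.

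Polr3b, its partner in the cleft, had 9.42, 8.89 and 9.67 CPM in control and 10.5, 13.5 and 17.5 CPM in EtP, without overlap (0.57 ± 0.26; edgeR adjusted p = 0.122, and -0.15 with library size alone). Polr3a exceeded Polr3b in TPM by 11.9 to 22.9 times in the 6 libraries, and by 5.78 to 8.26 times when counts were divided by the length of the longest coding transcript. The 2 scales differ because the weighted length of Polr3a was 31.1% to 45.4% of its longest coding transcript. The ratio of counts was 5.61 to 7.06 in control and 5.44 to 7.78 in EtP, and overlapped.

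**Figure D3:**
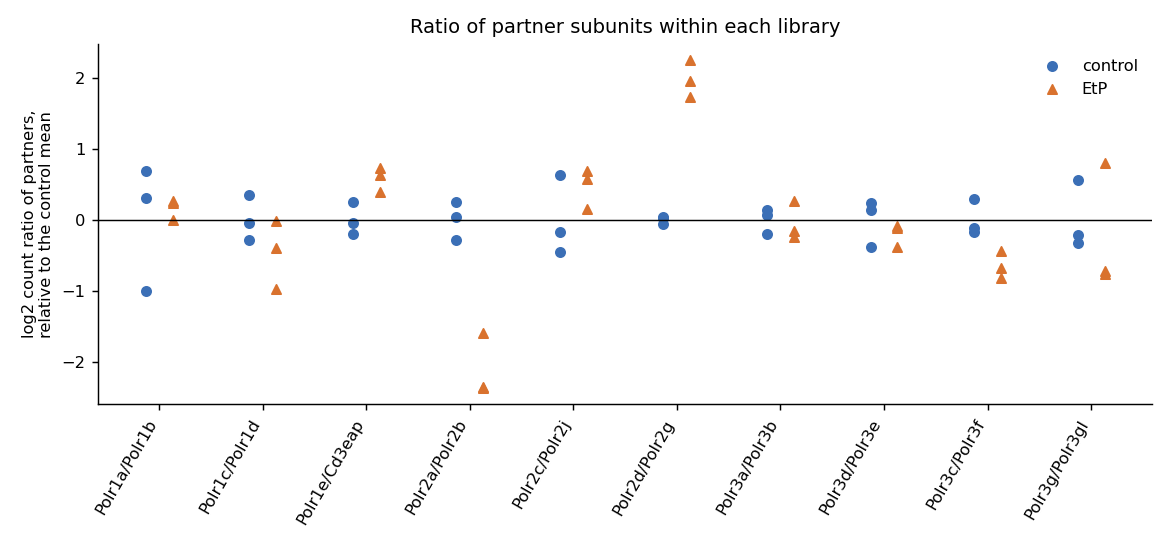
Log2 ratio of estimated counts between partner subunits in each library, relative to the mean of the 3 control libraries, for 10 of the 11 pairs; circles are control and triangles EtP libraries. The groups stand apart for Polr2a/Polr2b, Polr2d/Polr2g, Polr1e/Cd3eap and Polr3c/Polr3f, and overlap for the other 6 pairs drawn.

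The assembly platform is the dimer on which each enzyme is built, Polr2c with Polr2j in polymerase II and Polr1c with Polr1d in both polymerase I and polymerase III. Polr2c was by far the most abundant subunit message, with 999, 1049 and 1141 TPM in control and 1086, 877 and 1225 TPM in EtP. It made up 44.1% to 57.3% of the summed TPM of the polymerase II subunits in control and 55.2% to 62.9% in EtP. Its TPM groups overlapped.

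In CPM Polr2c had 1066, 904 and 850 in control and 1597, 1270 and 1520 in EtP, without overlap, and it rose by 0.64 ± 0.20 (SE; edgeR adjusted p = 0.0363). This call depended on the settings: the log2 fold change was -0.09 with library size alone and -0.01 with log2(TPM + 1), and it was also lost with upper-quartile scaling (0.56, edgeR adjusted p = 0.067), with a filter of 10 CPM (0.38, edgeR adjusted p = 0.149) and without control replicate 2 or 3 or EtP replicate 1 or 3 (0.61 to 0.67; edgeR adjusted p 0.0667 to 0.129). Over the 18 alternatives the adjusted p ran from 0.00342 to 0.959. The exons of Polr2c overlap those of Dok4 on the other strand, which was at 9.54 to 35.4 CPM in control and 18.5 to 20.2 CPM in EtP. Polr2j, its partner, had 110, 75.7 and 41.2 CPM in control and 80.3, 86.0 and 71.1 CPM in EtP, a log2 fold change of 0.07 ± 0.32 (edgeR adjusted p = 0.895) whose sign flipped with library size alone (-0.64).

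Polr1c, the larger partner of the I and III dimer, lies on chromosome 17 from 46243920 to 46248054 on the minus strand. It had 96, 77 and 60 counts in control and 20, 14 and 29 counts in EtP, or 5.76, 4.07 and 3.89 CPM and 1.93, 1.55 and 2.40 CPM. The groups did not overlap, and Polr1c fell by 1.21 on the log2 scale (SE 0.34; edgeR adjusted p = 0.0202). The call was lost without control replicate 1 or 2 or EtP replicate 1 or 2, with log2 fold changes of -1.23 to -0.91 and edgeR adjusted p of 0.0502 to 0.0955. Over 17 alternatives the adjusted p ran from 0.00114 to 0.0955, and in each the value was negative.

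Polr1d had 108, 65.1 and 47.5 CPM in control and 39.2, 47.2 and 37.5 CPM in EtP. Each EtP library was below each control library, by a small margin for control replicate 3. Its log2 fold change of -0.83 ± 0.30 was just outside the threshold (edgeR adjusted p = 0.0563), and 8 of 18 alternatives called it lower. In TPM Polr1d was 87.8 to 138 in control and 37.6 to 43.8 in EtP, well above Polr1c at 6.20 to 8.47 and 1.70 to 2.98. The ratio of Polr1c to Polr1d counts was 0.0533 to 0.0820 in control and 0.0328 to 0.0640 in EtP, and overlapped.

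The stalk of polymerase II, formed by Polr2d and Polr2g, gave the other large difference between partners. Polr2d, on chromosome 18 from 31789159 to 31796701, had 82.0, 45.6 and 36.2 CPM in control and 139, 164 and 174 CPM in EtP. The groups did not overlap. Polr2d rose by 1.54 ± 0.30 (SE; edgeR adjusted p = 0.0036) and was called higher under all 18 alternatives, from 0.85 to 2.05. It had no annotated overlapping gene, and its TPM was also without overlap, 80.6 to 126 in control and 153 to 232 in EtP.

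Polr2g, the other stalk subunit, had 217, 119 and 102 CPM in control and 112, 114 and 99.0 CPM in EtP, with control replicate 1 standing above the other libraries. Its log2 fold change was -0.43 ± 0.28 (edgeR adjusted p = 0.276), and 0.07 without control replicate 1. It was called lower in 3 of 18 alternatives. The ratio of Polr2d to Polr2g counts was 0.378, 0.382 and 0.356 in control and 1.23, 1.44 and 1.76 in EtP. The control ratios lay close together although the levels of each gene differed between those libraries, and the EtP ratios were 3.93-fold higher (exact two-sided permutation p = 0.1, adjusted p = 0.275 over 11 pairs). Polr2g was thus the more abundant of the pair in control and Polr2d in EtP, by counts and by TPM, where the ratio was 0.300 to 0.332 in control and 1.06 to 1.5 in EtP.

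**Figure D4:**
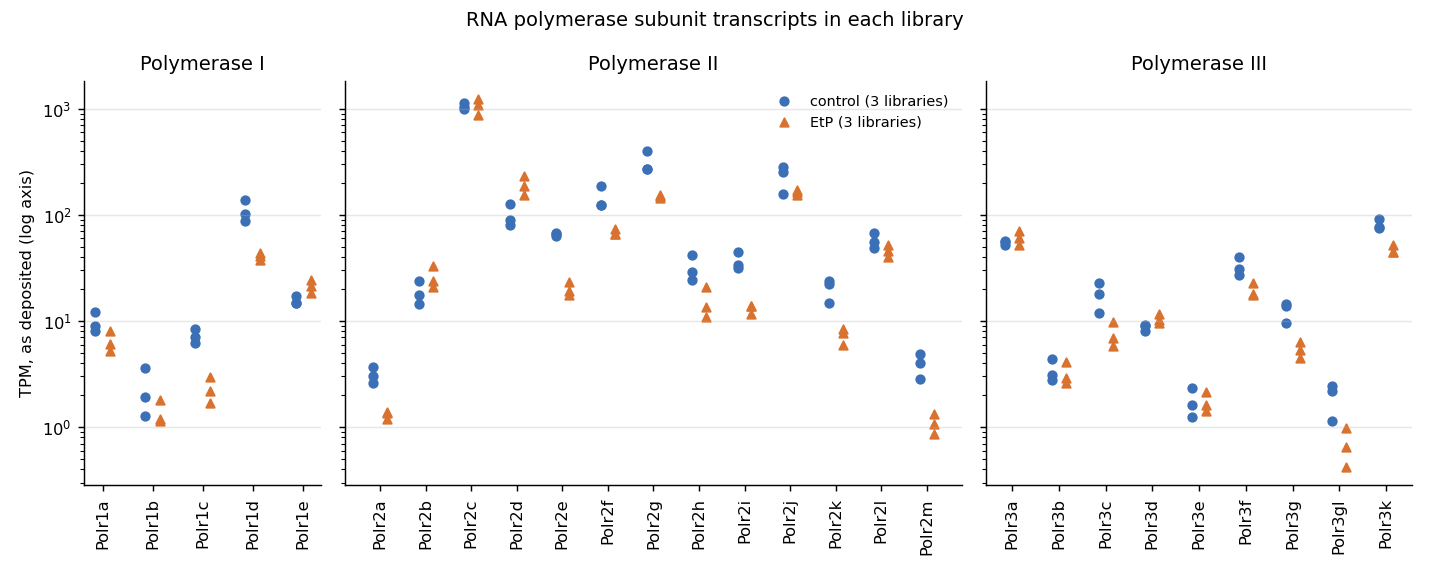
Deposited TPM of 27 subunits in each of the 6 libraries, on a log axis, by polymerase. Polr2c lies near the top of the scale in every library (877 to 1225 TPM), and the EtP points of Polr2d lie above its control points while those of Polr2e lie below.

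Of the 5 small subunits present in all 3 enzymes, Polr2e fell and the other 4 were not called. Polr2e, on chromosome 10 from 80035949 to 80039795 on the minus strand, had 49.8, 38.9 and 36.0 CPM in control and 18.2, 19.7 and 20.2 CPM in EtP. Libraries within each group lay close together and the groups did not overlap. Polr2e fell by 1.10 on the log2 scale (SE 0.22; edgeR adjusted p = 0.00455) and was called lower under all 18 alternatives, from -1.82 to -0.86. In TPM it went from 63.4 to 68.0 in control to 17.4 to 23.1 in EtP.

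The other shared subunits, Polr2f, Polr2h, Polr2k and Polr2l, had log2 fold changes of -0.47, -0.47, -0.74 and 0.31, with edgeR adjusted p of 0.182 to 0.446. Their CPM groups overlapped. In control they were highest in replicate 1: Polr2f was at 68.7 CPM there against 38.2 and 32.9 in the other controls, and 29.1 to 39.6 in EtP. Leaving out that library turned the signs of Polr2f (0.01) and Polr2h (0.12) and brought Polr2l past the threshold (0.71, edgeR adjusted p = 0.0255). With library size alone Polr2l was at -0.41. Polr2f, Polr2h and Polr2k were each called lower in 3 alternatives. Polr2k, the scarcest of them in TPM, had 14.8 to 24.0 TPM in control and 5.95 to 8.41 in EtP.

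Polr1e belongs to polymerase I alone, where it forms with Cd3eap a dimer that resembles the initiation factor TFIIF of polymerase II. It lies on chromosome 4 from 45018583 to 45036565 on the plus strand. Polr1e had 14.5, 12.5 and 10.5 CPM in control and 29.0, 26.2 and 29.4 CPM in EtP, without overlap, and rose by 1.17 ± 0.23 (SE; edgeR adjusted p = 0.00362). It was called in all 6 comparisons that left out 1 library. It was not called with library size alone (0.45, edgeR adjusted p = 0.12) or log2(TPM + 1) (0.43, limma adjusted p = 0.136), and over the 18 alternatives the adjusted p ran from 2.01e-05 to 0.139.

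Several subunits of polymerases I and III are annotated in mm10 under older symbols and so fall outside the rule. Among these 4, Cd3eap and Twistnb, the stalk subunit of polymerase I, were at 0.62 and 0.53 and Crcp, a subunit of polymerase III, was at -0.28, and none of these passed the test. Over the alternatives Twistnb was called higher in 2 of 18, Crcp lower in 3 of 18 and Cd3eap in 0 of 17. Znrd1, the small polymerase I subunit that helps to cleave the RNA when the enzyme stalls, had 14.5, 12 and 5.78 CPM in control and 1.54, 2.32 and 1.74 CPM in EtP. It fell by 2.53 on the log2 scale (SE 0.40; edgeR adjusted p = 0.00105) and was called under 17 of 17 alternatives, a larger fold change than that of any subunit matched by the rule. The ratio of Polr1e to Cd3eap counts was 12.4 to 17.0 in control and 18.8 to 23.7 in EtP, 1.5-fold higher without overlap (exact two-sided permutation p = 0.1, adjusted p = 0.275 over 11 pairs). Cd3eap itself was low, at 0.84, 0.899 and 0.844 CPM in control and 1.54, 1.1 and 1.33 CPM in EtP. At that level a few reads move the ratio, so it is weakly resolved.

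Polymerase III alone carries a trimer of Polr3c, Polr3f and either Polr3g or Polr3gl, which takes part in opening the promoter, and a dimer of Polr3d and Polr3e. Polr3c had 16.0, 24.0 and 20.4 CPM in control and 13.2, 11.7 and 12.2 CPM in EtP, without overlap. It fell by 0.70 on the log2 scale (SE 0.24; edgeR adjusted p = 0.0492), right at the threshold. The call was lost without control replicate 2 or 3 or any 1 of the EtP libraries (-0.71 to -0.48; edgeR adjusted p 0.0843 to 0.261), and over 18 alternatives the adjusted p ran from 0.00134 to 0.261. Polr3f had 21.4, 23.1 and 26.1 CPM in control and 21.2, 22.2 and 25.5 CPM in EtP (-0.03 ± 0.22; edgeR adjusted p = 0.926). Its sign changed in 8 of 18 alternatives, and 3 called it lower.

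The ratio of Polr3c to Polr3f counts was 0.747 to 1.04 in control and 0.477 to 0.622 in EtP, 1.57-fold lower without overlap, while the ratio of their TPM overlapped. Polr3g, the form described in mammals as typical of pluripotent and dividing cells, had 88, 105 and 69 counts in control and 27, 26 and 35 in EtP. In CPM this was 5.28, 5.55 and 4.48 against 2.61, 2.87 and 2.90, without overlap. Polr3g fell by 0.87 on the log2 scale (SE 0.29; edgeR adjusted p = 0.0415), and the call was lost without any 1 of the 6 libraries (-0.91 to -0.74; edgeR adjusted p 0.0504 to 0.17) and ran from 0.00157 to 0.17 over 17 alternatives.

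Polr3gl, the form described as typical of differentiated cells, had 8, 17.7 and 10.8 estimated counts in control and 6, 2 and 8 in EtP. It was the only subunit too low to be tested. In TPM it stood at 1.15, 2.21 and 2.42 in control and 0.990, 0.420 and 0.650 in EtP, below Polr3g at 9.51 to 14.5 and 4.49 to 6.34 in every library. The ratio of Polr3g to Polr3gl counts, 5.93 to 11 in control and 4.38 to 13 in EtP, overlapped.

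Polr3d and Polr3e, the polymerase III counterpart of the Polr1e dimer, were both higher in every EtP library than in any control library, without passing the test. Polr3d had 9, 8.14 and 7.46 CPM in control and 12.7, 11.7 and 10.8 CPM in EtP (0.52 ± 0.24; edgeR adjusted p = 0.125). Polr3e had 2.88, 2.80 and 3.70 CPM in control and 5.21, 4.75 and 5.38 CPM in EtP (0.71 ± 0.29; edgeR adjusted p = 0.0837). Both signs turned with library size alone (-0.21 and -0.02), and Polr3d passed without control replicate 1 (0.68, edgeR adjusted p = 0.0315). The ratio of their counts was 2.02 to 3.12 in control and 2.02 to 2.47 in EtP.

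At the periphery, Polr2i and Polr3k carry zinc ribbons related to the transcript-cleavage factor TFIIS. Polr2i had 15.5, 8.30 and 7.21 CPM in control and 5.79, 7.85 and 5.38 CPM in EtP (-0.71 ± 0.34; edgeR adjusted p = 0.139). Polr3k had 179, 112 and 90.8 CPM in control and 149, 127 and 109 CPM in EtP (0.01 ± 0.27; edgeR adjusted p = 0.979). Their CPM groups overlapped. In TPM both were lower in EtP without overlap, as were 50.4% of all genes tested. Polr2i was at 31.8 to 45.0 TPM in control and 11.7 to 13.9 in EtP, and Polr3k at 74.9 to 91.0 and 44.6 to 51.5. Polr2i was called lower in 3 of 17 alternatives and Polr3k in 3 of 18. Polr3k took the opposite sign in 8 of 18 alternatives, down to -0.78.

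Polr2m, also known as Gdown1, is not a core subunit but binds a fraction of polymerase II and makes it depend on Mediator. It had 73, 94 and 81 counts in control and 19, 25 and 23 in EtP, or 4.38, 4.97 and 5.26 CPM and 1.83, 2.76 and 1.90 CPM. The groups did not overlap and Polr2m fell by 1.17 on the log2 scale (SE 0.32; edgeR adjusted p = 0.0174). The call was lost without control replicate 2 or EtP replicate 1 or 3 (-1.08 to -1.03; edgeR adjusted p 0.0713 to 0.0987). Over 17 alternatives the adjusted p ran from 0.000979 to 0.0987.

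Summed over the subunits that carry an enzyme's symbol, TPM was lower in every EtP library than in any control library. Subunits shared with other enzymes were counted only under their symbol, and those under older symbols were not counted. For the polymerase I and III symbols the groups overlapped once 1 subunit was taken out. Polymerase I subunits summed to 172, 138 and 124 TPM in control and 68.5, 70.2 and 78.3 TPM in EtP, and without Polr1d to 33.4, 35.0 and 35.8 against 30.9, 26.4 and 37.0 TPM, which overlapped. Polymerase III subunits summed to 214, 228 and 224 TPM in control and 160, 146 and 168 TPM in EtP, and without Polr3k to 141 ± 15.4 against 111 ± 11.4 TPM (SD, n = 3), where the highest EtP library, at 124 TPM, overlapped the lowest control. Polymerase II subunits summed to 2263, 2007 and 1991 TPM in control and 1727, 1590 and 1983 TPM in EtP, with the nearest libraries almost equal. Without Polr2c they summed to 1264, 957 and 849 TPM in control and 640, 713 and 759 TPM in EtP. In single genes at large the TPM groups did not overlap for 57.1% of all genes tested, 50.4% lower in EtP and 6.74% higher, against 15 and 3 of the 27 subunits. In TMM-scaled CPM, 6 subunits were lower and 8 higher without overlap, where the background was 46.8%, 27.9% lower and 19.0% higher.

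Short and long transcripts differed, among the subunits and among all genes. Of subunits whose longest coding transcript is under 1500 bases 10 were tested, with a median log2 fold change of -0.59, and the 1683 tested genes of that length also had a median of -0.59. The 17 longer subunits had a median of 0.21 and the 10085 longer genes a median of -0.09. Without control replicate 1 the medians of the short groups were -0.20 for 11 subunits and -0.23 for all genes, and those of the long groups 0.43 and -0.06. Control replicate 1 had the highest control CPM for 16 of the 28 subunits. The limit of 1500 bases was chosen after the values were seen, and the part of length in the single results was not tested.

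The genes that work with the polymerases were read from lists by role, and their counts stand beside a background of 30.6% of all genes called, 12.5% higher and 18.1% lower, and a median of -0.19. Of 8 polymerase I factors, mostly for initiation but with the terminator-binding Ttf1 among them, 7 were tested, and 2 rose and 1 fell (42.9%, median 0.64). Taf1a, a subunit of the selectivity factor that binds the ribosomal gene promoter, had 102, 69.6 and 66.6 CPM in control and 566, 468 and 530 CPM in EtP and rose by 2.72 ± 0.24 (SE; edgeR adjusted p = 2.99e-05). Taf1b, another subunit of that factor, had 26.5, 17.8 and 14.2 CPM in control and 78.3, 74.9 and 78.6 CPM in EtP and rose by 1.99 ± 0.26 (SE; edgeR adjusted p = 0.000405). Neither pair of groups overlapped, and both were called under all 18 alternatives.

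Rrn3, which joins polymerase I to that factor, had 64.8, 86.4 and 83.9 CPM in control and 49.8, 51.7 and 50.8 CPM in EtP. It fell by 0.63 on the log2 scale (SE 0.21; edgeR adjusted p = 0.0445), and the call was lost without any 1 of the libraries other than control replicate 1 (-0.60 to -0.48; edgeR adjusted p 0.102 to 0.223). Over 18 alternatives its adjusted p ran from 0.00095 to 0.223. Ttf1, which binds the terminators of the ribosomal genes, had 7.53 to 22.1 CPM in control and 16.6 to 43.0 CPM in EtP, with overlap (1.03 ± 0.42; edgeR adjusted p = 0.0879).

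Of 18 polymerase III factors, mostly for initiation but with the regulator Maf1 among them, 1 rose and 2 fell (16.7%, below the 30.6% of all genes, median -0.36). Brf2, which takes the place of Brf1 at promoters such as that of U6, had 39.8, 33.3 and 24.0 CPM in control and 111, 92.7 and 93.2 CPM in EtP and rose by 1.61 ± 0.24 (SE; edgeR adjusted p = 0.000865), a call made under all 18 alternatives. Snapc1 to Snapc5 form the complex that recognises the promoters of small nuclear RNA genes, and its members had log2 fold changes of either sign. Snapc5 fell by 1.31 on the log2 scale (SE 0.33; edgeR adjusted p = 0.0121), a call lost without EtP replicate 2 or 3 (-1.24 and -1.20; edgeR adjusted p = 0.0596 and 0.0593), and Snapc2, below 3 CPM, fell by 1.98 (SE 0.46; edgeR adjusted p = 0.0085). Snapc1 had 19.3 to 34.1 CPM in control and 36.0 to 40.5 CPM in EtP, without overlap (0.61 ± 0.26; edgeR adjusted p = 0.0931, and -0.11 with library size alone). Snapc4, below 5 CPM, was at 0.78 ± 0.40 and Snapc3 at -0.67 ± 0.29 (edgeR adjusted p = 0.164 and 0.1).

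Of 17 assembly and import factors 2 rose and 3 fell (29.4%, beside 30.6% of all genes; median 0.05). Wdr92 and Rpap3, which act with the chaperone Hsp90 in building the enzymes, rose by 1.16 ± 0.22 and 0.73 ± 0.21 (SE; edgeR adjusted p = 0.00298 and 0.0223). With library size alone neither was called (0.44 and 0.01), and Rpap3 was also lost without control replicate 2 or any 1 of the EtP libraries (0.75 to 0.79; edgeR adjusted p 0.0587 to 0.0782). The adjusted p of Rpap3 over its 18 alternatives ran from 0.00175 to 0.986. Gpn3, a GTPase needed to bring polymerase II into the nucleus, and the prefoldin-type chaperones Uxt and Pfdn6 fell by 2.62, 1.13 and 1.00 on the log2 scale (SE 0.56, 0.31 and 0.33; edgeR adjusted p = 0.00555, 0.02 and 0.0393), Gpn3 from a level below 3 CPM. Gpn1, a GTPase of the same family, and Ruvbl1, an ATPase of the Hsp90 co-chaperone complex, lay just outside the threshold at 0.74 ± 0.26 and -0.71 ± 0.25 (edgeR adjusted p = 0.0525 and 0.0508), and with library size alone Gpn1 was at 0.02. Gpn1 was called higher in 5 of 18 alternatives and Ruvbl1 lower in 8 of 18.

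Of 18 kinases, cyclins and phosphatases of the polymerase II CTD 16 were tested, and 4 rose and 1 fell (31.2%, beside 30.6% of all genes; median -0.05). Cdk7, the kinase of TFIIH, had 61.8, 34.4 and 31.5 CPM in control and 159, 161 and 130 CPM in EtP and rose by 1.82 ± 0.28 (SE; edgeR adjusted p = 0.00105). Its assembly partner Mnat1 rose by 1.78 ± 0.28 (SE; edgeR adjusted p = 0.00115), from 9.15 to 17.3 CPM in control to 36.4 to 46.6 CPM in EtP, and both were called under all 18 alternatives. The cyclins Ccnk and Ccnt1 rose by 1.06 ± 0.22 and 0.79 ± 0.22 (SE; edgeR adjusted p = 0.00514 and 0.0213), and with library size alone Ccnk was at 0.34 and not called. Rprd1a, which binds the CTD, fell by 0.92 on the log2 scale (SE 0.25; edgeR adjusted p = 0.0167) and was not called without control replicate 2 or EtP replicate 1 or 2 (-0.88 to -0.77; edgeR adjusted p 0.0711 to 0.113).

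Of the 7 genes of mitochondrial transcription 1 rose and 0 fell (14.3%, beside 30.6% of all genes; median 0.36). Mterf4, which helps to assemble mitochondrial ribosomes, rose by 1.04 ± 0.27 (SE; edgeR adjusted p = 0.0144), a call lost with library size alone (0.32) and without control replicate 2 or EtP replicate 1 (1.03 and 1.00; edgeR adjusted p = 0.0611 and 0.0599). Tfam, which packages and activates mitochondrial DNA, Tfb1m, which methylates mitochondrial ribosomal RNA, and Mterf3 were at 0.67 ± 0.30, 0.64 ± 0.31 and 0.36 ± 0.27 (edgeR adjusted p = 0.12, 0.144 and 0.338), and at -0.08, -0.07 and -0.35 with library size alone. For decreases in this list the count at an unadjusted p below 0.05 was also 0 in edgeR, and the other tools' counts for the list were not computed. Up to 4 genes per list were named for the smallest p at a mean of at least 5 CPM. Exons of Wdr92, Brf2, Gpn1, Gpn3, Uxt, Pfdn6, Ccnt1 and Mterf4 overlap a gene on the other strand, whose reads this protocol cannot tell apart. The same holds for Cd3eap, Snapc3, Snapc4, Tfb1m and Mterf3. Snapc2, Snapc4, Gpn3, Uxt, Pfdn6 and Ccnt1 fall outside the naming rule and were named after their values were seen. How these genes fared under the alternatives was not examined. In TPM the groups of Ccnt1 overlapped, and those of Snapc2, Gpn3, Uxt and Pfdn6 did not.

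**Figure D5:**
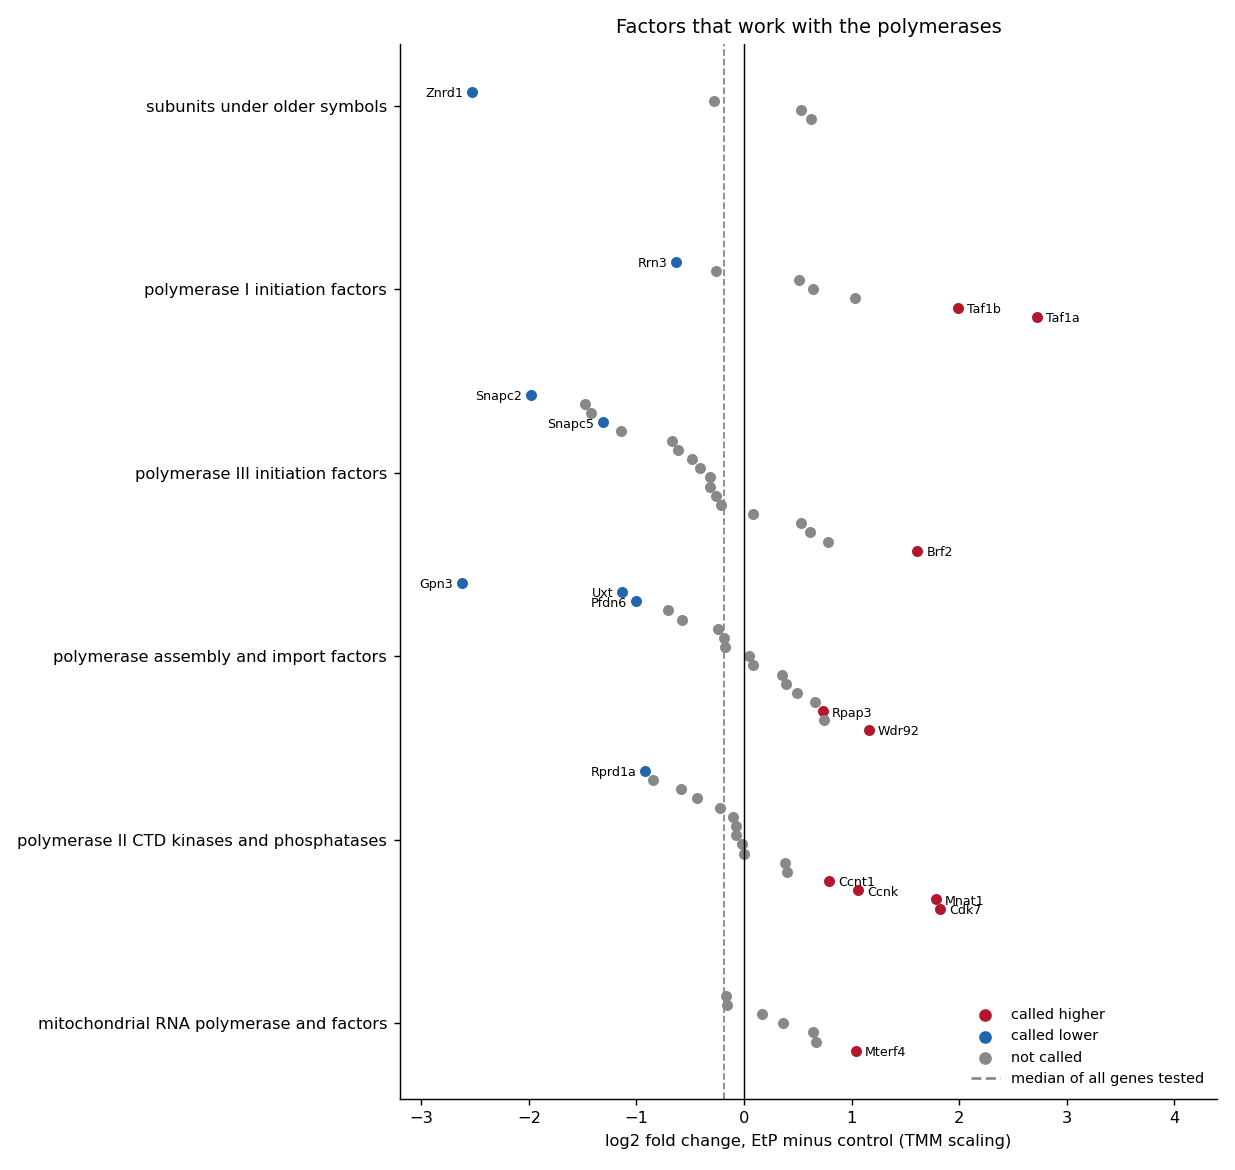
Log2 fold change (EtP minus control, TMM scaling) of tested genes in 6 lists of factors around the polymerases, 1 point per gene, with colours for called genes and a dashed line at the median of all genes tested (-0.19). Taf1a, Taf1b and Cdk7 lie farthest to the right, and Gpn3 and Znrd1 farthest to the left.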

How the data were processed

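Libraries were made from polyadenylated RNA by Smart-seq2, with oligo-dT priming, PCR and paired-end sequencing that keeps no strand, per the labels' protocols. The submitters' processing notes name cutadapt 1.16, STAR and mm10; no STAR version or counting program is given in the sources used here. Each of the 6 deposited tables has 55549 rows. The expected count in each deposited table is the authors' estimated count of fragments per gene, per the file headers. The TPM in each deposited table was computed by the authors from these with a weighted transcript length in bases. Positions, exons and coding lengths came from GENCODE M21 on the same assembly, and promoter windows from RefSeq on GRCm38.p6.

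Expected counts were rounded and tested in edgeR 4.0.16 (R 4.3.3) with filterByExpr, TMM normalization, a robust quasi-likelihood fit of group and Benjamini-Hochberg adjustment at 0.05. An SE is the absolute log2 fold change over the square root of F. The TMM factor was 1.198 to 1.385 for controls but 0.738 to 0.833 for EtP. Depth, 11173295 to 14737152 counts, limits low genes, and PCR copies carried no molecular identifiers. No 2 libraries were alike within sampling noise. Within-library ratios were compared by exact permutation (scipy 1.17.1).

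The alternatives tried were 3 other scalings (RLE, upper quartile, library size), other filters, DESeq2 1.42.0, limma 3.58.1 on voom values or log2(TPM + 1) or log2(TPM + 0.1), a replicate block, mitochondrially encoded genes removed, and 1 library left out at a time. Dropping rows that lack an Ensembl ID was tried after the data had been seen. Subunits, factor lists, naming rule and tests were chosen with earlier results of these data known. 1 subunit is not reported here, although it stays in the counts, sums and medians over subunits and in the adjustment over pairs. The rule names every other subunit, 4 subunits under older symbols and, per list, up to 4 genes of smallest p at a mean of at least 5 CPM. The edgeR step was tested on simulated data, in which 94 of 13762 tested genes changed 2-fold and 93 changed 4-fold. The other genes had the same mean in both groups, whereas 30.6% of genes were called in the real data. In the simulation it called 19.1% of genes changed 2-fold and 77.4% of those changed 4-fold, and 9.09% of its calls were unchanged genes. Because the settings differ, these rates need not hold for the real calls. A gene not called may still have changed. Figures were drawn with matplotlib 3.10.9.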

Additional observations from a re-analysis of the deposited data

How the results depend on the processing

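Directions and calls moved with the scaling. At 3 libraries per group, changes in genes at or below about 5 CPM are weakly resolved. These include the called Polr1c, Polr2m and Polr3g as well as Polr1b, Polr2k, Polr3e and Polr3gl. Over the single subunits and factors and their alternatives, 712 results kept direction and side of the threshold, 70 passed it newly, 69 no longer passed and 56 took the opposite sign; where no value shows it, the cause was not tested. For called counts, library size alone gave for polymerase I 0 higher and 2 lower, for polymerase II 8 lower, for polymerase III 5 lower, and for all genes tested 545 higher and 7617 lower. Log2(TPM + 1) gave 0 and 2 for polymerase I, 1 and 8 for polymerase II, 5 lower for polymerase III, and 698 and 6195 for all genes tested; log2(TPM + 0.1) gave the same counts of subunits and 697 and 6190. A filter of 10 CPM in 3 libraries, which tests fewer genes, gave 978 and 1454 for all genes tested and 1 lower for polymerase III. For polymerase I, upper-quartile scaling and no filter gave 2 lower each. For polymerase III, RLE scaling and no filter gave 0 lower, DESeq2 1 higher and 0 lower, and limma-voom and removal of rows without an Ensembl ID 1 lower each.

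Same-numbered libraries were not treated as pairs in the main fit, since the replicate numbers only name libraries. The correlations of their deviations were 0.127, 0.00319 and 0.273, against -0.228 to 0.111 for libraries of different number. So few values cannot decide whether the libraries are paired. With the replicate block, polymerase I had 2 subunits lower, and the counts for all genes tested were 2295 higher and 3022 lower. Leaving out 1 library at a time gave 1096 to 2637 higher and 1659 to 2887 lower for all genes tested, 1 higher and 0 to 2 lower for polymerase I, 2 to 4 higher and 1 to 2 lower for polymerase II, and 0 to 2 higher and 0 to 2 lower for polymerase III. The count of genes higher fell by more than 1.5 times without EtP replicate 1 (1096), and that of genes lower without EtP replicates 1, 2 and 3 (1659, 1729 and 1731).

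Opposite signs, as log2 fold changes, were as follows. RLE scaling gave Polr3f 0.06. Upper-quartile scaling gave Polr2j -0.01 and Polr3k -0.06. With library size alone they were Polr1a -0.51, Polr2c -0.09, Polr2j -0.64, Polr2l -0.41, Polr3a -0.22, Polr3b -0.15, Polr3d -0.21, Polr3e -0.02, Polr3k -0.70, Twistnb -0.20, Cd3eap -0.10, Snapc1 -0.11, Tfam -0.08, Tfb1m -0.07 and Mterf3 -0.35. Without a filter it was Polr3f 0.02. With the 10 CPM filter they were Polr1a -0.04, Polr2j -0.18 and Polr3k -0.24. The replicate block gave Polr1b 0.01. DESeq2 gave Polr3f 0.06. limma-voom gave Polr1b 0.07. With log2(TPM + 1) they were Polr1a -0.52, Polr2c -0.01, Polr2j -0.44, Polr2l -0.31, Polr3b -0.06, Polr3k -0.77, Cd3eap -0.19 and Mterf3 -0.16. With log2(TPM + 0.1) they were Polr1a -0.58, Polr2c -0.01, Polr2j -0.45, Polr2l -0.31, Polr3b -0.08, Polr3k -0.78, Cd3eap -0.37 and Mterf3 -0.16. For genes that turned sign when 1 library was left out, the leave-one-out values ran from -0.36 to 0.50 for Polr1b, -0.63 to 0.01 for Polr2f, -0.60 to 0.07 for Polr2g, -0.70 to 0.12 for Polr2h, -0.19 to 0.53 for Polr2j, -0.14 to 0.43 for Polr3k, -0.08 to 0.09 for Polr3f and -0.44 to 0.08 for Crcp.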
